A study of Mus musculus with 26 samples.

Results

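The insulin receptor with its C-terminus removed (∆CT) was compared with the full-length receptor (IR) in unstimulated mouse brown preadipocytes, using the 3 ∆CT and 3 IR libraries labelled as having received no insulin, 6 of the 26 libraries of the series. Every gene with more than 0.5 CPM (counts scaled to a common library total) in at least 4 of the 26 libraries entered the comparison, which left 15402 of the 52962 genes in the table. Both lines came from 1 parental line of immortalized brown preadipocytes from newborn mice carrying floxed IR and IGF1R alleles, in which Cre had removed both receptors (DKO), and both then received a FLAG-tagged human receptor: the B isoform of IR in IR cells, and the same receptor without its last 79 residues in ∆CT cells. The cells had been starved of serum for 6 h. The other lines used for side-by-side levels were DKO cells with no added receptor, cells with the kinase-dead receptor K1030R, and cells with a receptor that keeps only the juxtamembrane stretch of its intracellular part (JMO), 3 basal libraries each. The same 2 lines after 15 min with 100 nM insulin gave 3 further IR and 2 further ∆CT libraries. Each receptor was carried by 1 transduced and drug-selected line, so an effect of the receptor and a difference between lines cannot be told apart. Nothing in the labels states that the 3 libraries of a group came from separate cultures, so the p-values measure the spread between libraries. That spread was estimated within the groups of all 26 libraries together, and not from the 6 basal libraries alone.

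The insulin receptor is a tyrosine kinase made of extracellular ligand-binding and membrane-spanning subunits, and its C-terminal tail lies beyond the kinase domain and carries tyrosines that become phosphorylated on activation. Brown preadipocytes are mesenchymal cells that lay down collagen-rich matrix and can become thermogenic adipocytes. Type I interferons act on cells through the receptors IFNAR1 and IFNAR2, the kinases JAK1 and TYK2, and transcription factors that include STAT2 and IRF9, which bind interferon-stimulated response elements in the promoters of antiviral genes. Many of these genes have a low basal level in cells that have met no virus.

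Library totals ranged from 19084248 to 23779162 counts in IR and from 19561131 to 21511285 in ∆CT basal libraries, and the common biological coefficient of variation was 4.44%. ∆CT replicate 3 stood apart from ∆CT replicates 1 and 2. On the first principal component of the 11 IR and ∆CT libraries, which held 32.8% of the variance, it lay at -7.49, the other 2 at -18.5 and -22.0, and the IR basal libraries between 11.2 and 14.7. Among genes with a mean of at least 1 CPM, it differed by more than 1.5-fold from the mean of the other 2 in 256. Each other basal library of the 2 lines did so in 99 to 149 genes. It was the highest of the ∆CT libraries in 95 of the 104 genes called lower (in 37.9% of all tested genes), so main counts are also given without it. The mesenchymal markers *Col1a1*, *Col1a2*, *Col3a1*, *Pdgfra*, *Pdgfrb*, and *Vim* were high in both lines. Other members of that list were lower, with *Thy1* at 1360 counts over the 3 IR and 1514 over the 3 ∆CT libraries, *Cd34* at 763 and 860, and *Ly6a* at 275 and 174. The brown preadipocyte marker *Ebf2* had 12 and 9 counts, and *Dlk1* 1 and 2. The mature brown fat gene *Ucp1* and the adipocyte hormone gene *Adipoq* had none in either line. Of the defining leukocyte genes, *Adgre1* and *Tyrobp* were at 0 counts in both lines, *Ptprc* had 7 counts over the IR and 11 over the ∆CT libraries, *Itgam* 8 and 5, and *Csf1r* 21 and 37. *Cd14* had more, 599 and 604 counts, and *Cd68* 132 and 120. The summed level of the 3 tested leukocyte markers of 9, *Cd14*, *Cd68*, and *Csf1r*, was 11.4 to 12.9 CPM in IR and 12 to 13.2 CPM in ∆CT.

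The comparison sets the line with the shortened receptor against the line with the full-length receptor when no ligand is added. At a minimum fold of 1.5, ∆CT cells had 104 genes lower and 5 higher than IR cells (edgeR glmTreat, Benjamini-Hochberg adjusted p below 0.05), 0.675% and 0.0325% of the genes tested and 0.708% in all. With no minimum fold, 2284 genes (14.8%) were lower and 1729 (11.2%) higher, with a median fold of 1.21 and 1.15. The median log2 fold change over all tested genes was -0.01, and over the 104 lower genes -1.33, with a range from -0.76 to -2.57. All 104 had ∆CT libraries below every IR library, as did 18.8% of all tested genes. Without ∆CT replicate 3 the lower genes numbered 163, of which 101 were among the 104, and the higher genes 14; without replicate 1 there were 52 lower and 2 higher genes, and without replicate 2 there were 56 and 3. A fit to the 6 basal libraries alone called 30 genes lower and 2 higher, while 92 of the 104 were lower in that fit with no minimum fold.

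Interferon-inducible antiviral genes formed the main group of lower genes. Of the 104, 49 belonged to lists of interferon-stimulated genes or of interferon-inducible families, 7 to lists of extracellular matrix and integrin genes, 8 to other lists, and 40 to none. The 40 included members of interferon-inducible families that the lists did not hold, such as *Oas1g* and *Ifit1bl1*. Of the 49, 24 were in the general list and the others in lists added after values were seen. The interferon lists together held 0.773% of all tested genes. Of the 49 genes in a general list of interferon-stimulated genes, 48 were tested; 45 were lower in ∆CT cells, none was higher, and 24 passed at the minimum fold, with a median log2 fold change of -1.04. The 3 that did not pass were *Psmb8*, *Ifitm1*, and *Ifitm2*, at -0.77, -0.28, and -0.08 on the log2 scale. Without ∆CT replicate 3, 46 were lower and 34 passed at the minimum fold, with a median of -1.33; without replicate 1 or 2, 11 passed at the minimum fold. When only the 6 basal libraries were fitted, 1 of the 48 passed at the minimum fold and 26 with none, although all 48 log2 fold changes stayed below 0 in every fit run. In that fit 11 named interferon genes lost their call even with no minimum fold, *Ifit1*, *Ifit3*, *Oas2*, *Oasl2*, *Mx2*, *Irf7*, and *Irgm1* among them (adjusted p 0.0502 to 0.0803).

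*Isg15*, which encodes a ubiquitin-like modifier, stood at 62.0, 57.2, and 44.1 CPM in the 3 IR libraries and at 13.2, 11.9, and 24.6 CPM in the 3 ∆CT libraries. *Ifit1*, whose product binds foreign RNA caps, was at 335, 359, and 308 CPM in IR and at 95.7, 97.5, and 179 CPM in ∆CT. *Rsad2*, which encodes the antiviral enzyme viperin, was at 5.21, 5.76, and 4.64 CPM in IR and at 1.04, 1.15, and 1.40 CPM in ∆CT. In all of these genes the groups were apart, and the third ∆CT library was the highest of its group. The log2 fold changes were -1.73 ± 0.20 (SE) for *Isg15*, -1.43 ± 0.17 for *Ifit1*, and -2.12 ± 0.16 for *Rsad2*, with adjusted p at the minimum fold of 0.00116, 0.00323, and 1.94e-08.

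**Figure D1:**
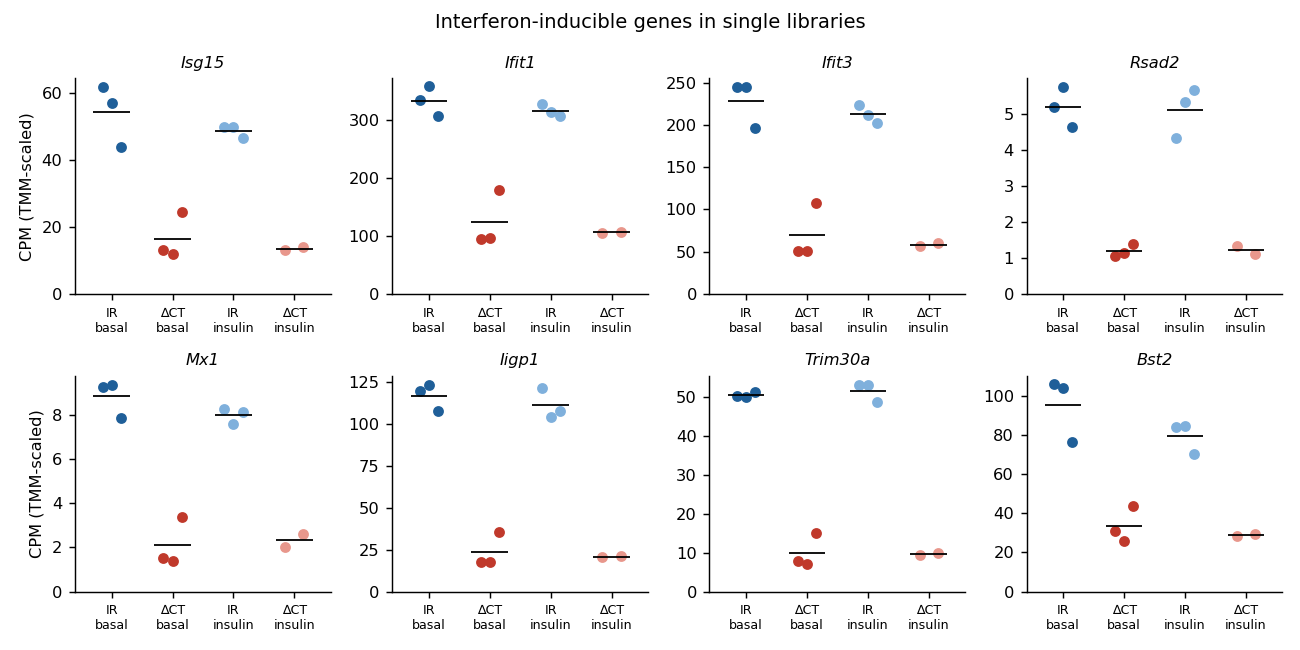
CPM (TMM-scaled, linear axis from 0) of 8 interferon-inducible genes in each IR and ∆CT library, basal and with insulin; points are libraries in order of replicate number and bars are group means. All ∆CT libraries lie below all IR libraries in each panel, and the third ∆CT basal library is the highest of its group, at 24.6 CPM for *Isg15* against 13.2 and 11.9 CPM.

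Several antiviral effectors passed at the minimum fold. The dynamin-like GTPase gene *Mx1* fell from 8.82 ± 0.837 CPM (SD, n = 3) in IR to 2.09 ± 1.10 CPM in ∆CT, and its paralog *Mx2* from 84.6 to 35.7 CPM. The oligoadenylate synthetase genes *Oas1a*, *Oas2*, and *Oas3* and the related *Oasl1* and *Oasl2* were lower by 1.31 to 1.73 log2 units. *Bst2*, which encodes the protein that tethers budding virus to the cell surface, was at 95.4 CPM in IR and 33.4 CPM in ∆CT (log2 fold change -1.52 ± 0.15). *Usp18*, whose product takes ISG15 off proteins and restrains interferon receptor signalling, fell from 103 to 41.7 CPM. The peptide transporter gene *Tap1* and the MHC class I light chain gene *B2m* fell by less, from 37.7 to 19.6 and from 353 to 239 CPM, and *B2m* did not pass at the minimum fold. *Cxcl10*, which encodes an interferon-induced chemokine, was at 49.6, 53.7, and 40.8 CPM in IR and at 17.2, 17.5, and 27.2 CPM in ∆CT.

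The interferon-inducible GTPases, which act on the membranes around intracellular pathogens, were added as a list after their values had been seen, so that their count is a description. Of 30 tested, 27 were lower, none was higher, and 19 passed at the minimum fold, with a median log2 fold change of -1.44; in the fit of the 6 basal libraries alone, 15 passed with no minimum fold and 6 at it. Without ∆CT replicate 1 or 2, 11 passed at the minimum fold, and without replicate 3, 24. Of 18 tested genes of the IFI200, Schlafen, and SP100 families, added in the same way, 13 were lower and none higher, with a median of -1.25. *Gm4951*, one of the GTPase genes, had the lowest fitted log2 fold change of all called genes, -2.57 ± 0.19. It stood at 13.4, 13.1, and 11.9 CPM in IR and at 1.66, 1.5, and 3.36 CPM in ∆CT. *Iigp1* was at 120, 123, and 108 CPM in IR and at 18.0, 17.8, and 35.6 CPM in ∆CT. Both lie on chromosome 18 (GRCm38), *Gm4951* at chr18:60212080-60247820 and *Iigp1* at chr18:60376027-60392634. That chromosome had the highest share of called lower genes, 9 of 431 tested or 2.09%, with a median log2 fold change of -0.02 over all its genes. Those 9 include neighbours in 1 stretch: *Gm4841* and *F830016B08Rik* lie between *Gm4951* and *Iigp1*, and *BC023105* begins at base 60441765. Across the 26 libraries, the genes whose levels tracked *Gm4951* most closely were *Trim30a* (Pearson's r = 0.994), *F830016B08Rik* (0.993), and *Iigp1* (0.992), a description over libraries that share lines. *Trim30a*, a member of the tripartite motif family, was at 50.2, 49.8, and 51.1 CPM in IR and at 7.82, 7.14, and 15.1 CPM in ∆CT, a mean 5.06 times higher in IR. The GTPase, *Ifit*, *Oas*, *Trim30*, and *Slfn* families hold near-identical copies between which reads could have been divided, so that single members are less certain than the families, and *Slfn8* had the same counts as a second gene identifier among the 104.

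The genes of interferon signalling formed a list that was added after values were seen. The receptor genes *Ifnar1* and *Ifnar2* had log2 fold changes of -0.02 ± 0.03 and 0.01 ± 0.05, and the kinase genes *Jak1*, *Jak2*, and *Tyk2* 0.13 ± 0.03, 0.01 ± 0.03, and -0.04 ± 0.06, of which *Jak1* passed. The transcription factor genes that are themselves interferon-inducible were lower: *Stat2* fell from 259 to 148 CPM, *Irf9* from 98 to 60.6 CPM, and *Irf7*, a regulator of interferon production, from 59.9 to 25.8 CPM. *Irf7* alone of these passed at the minimum fold, with an adjusted p of 0.0439 that lay just inside the threshold. Over the list of interferon ligands, receptors, and signalling genes, 1 of 20 tested was lower at the minimum fold, and 4 were without ∆CT replicate 3. Among 18 tested sensors of foreign nucleic acid and their adaptors, a list also added afterwards, 11 were lower and 1 higher. They included *Tlr3* (from 53.9 to 28.7 CPM), *Zbp1* (from 4.29 to 1.28 CPM), and the cytosolic RNA sensors *Ifih1* (from 61.4 to 34.7 CPM) and *Ddx58* (from 299 to 185 CPM). The adaptor gene *Mavs* and the kinase gene *Tbk1* had log2 fold changes of 0.00 ± 0.05 and 0.03 ± 0.04 and did not pass. The interferon genes themselves were nearly unmeasured, with *Ifnb1* at 0 counts over the 3 IR and 1 count over the 3 ∆CT libraries, which is too few to compare.

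Promoter sequences of 5 of the lower genes are shown because the interferon-stimulated response element, a site bound by factors that include STAT2 and IRF9, can be read in them. Each is the 250 bases before the annotated start (RefSeq, GRCm38.p6), 5′ to 3′ on the strand of the gene, with matches to the element (GAAA, any 2 bases, GAAA, on either strand) in capitals. They lie at chr4:156200819-156201068, minus strand (*Isg15*), chr19:34640639-34640888, plus strand (*Ifit1*), chr19:34583279-34583528, plus strand (*Ifit3*), chr8:71537473-71537722, minus strand (*Bst2*), and chr12:26456453-26456702, minus strand (*Rsad2*).
Isg15: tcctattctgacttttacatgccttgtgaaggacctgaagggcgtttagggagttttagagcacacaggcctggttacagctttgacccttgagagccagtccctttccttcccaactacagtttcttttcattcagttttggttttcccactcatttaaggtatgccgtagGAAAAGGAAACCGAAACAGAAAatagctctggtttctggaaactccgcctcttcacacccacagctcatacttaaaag
Ifit1: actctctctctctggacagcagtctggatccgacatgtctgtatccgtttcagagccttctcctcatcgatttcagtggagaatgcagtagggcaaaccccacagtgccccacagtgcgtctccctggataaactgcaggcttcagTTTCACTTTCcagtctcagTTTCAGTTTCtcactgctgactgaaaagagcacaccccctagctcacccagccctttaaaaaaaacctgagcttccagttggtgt
Ifit3: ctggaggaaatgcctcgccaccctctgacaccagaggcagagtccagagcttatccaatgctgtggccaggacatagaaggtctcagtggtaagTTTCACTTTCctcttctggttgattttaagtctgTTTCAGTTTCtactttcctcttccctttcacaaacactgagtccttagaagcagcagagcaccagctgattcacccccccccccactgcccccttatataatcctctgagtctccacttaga
Bst2: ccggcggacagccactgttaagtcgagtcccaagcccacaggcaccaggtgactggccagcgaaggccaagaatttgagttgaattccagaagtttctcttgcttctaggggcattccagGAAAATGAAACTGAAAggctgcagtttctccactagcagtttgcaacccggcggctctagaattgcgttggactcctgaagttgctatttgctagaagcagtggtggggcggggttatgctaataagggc
Rsad2: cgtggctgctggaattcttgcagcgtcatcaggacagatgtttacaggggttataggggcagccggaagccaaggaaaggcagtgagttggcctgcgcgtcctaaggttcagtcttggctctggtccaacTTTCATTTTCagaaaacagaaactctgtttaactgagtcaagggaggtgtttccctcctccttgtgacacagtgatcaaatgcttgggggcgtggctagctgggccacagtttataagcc

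In *Isg15* 3 overlapping matches begin 78, 72, and 66 bases before the start, and in *Bst2* 2 overlapping matches begin 130 and 124 bases before it. *Ifit1* and *Ifit3* hold 2 matches each and *Rsad2* 1. These letters were chosen after the called genes were seen. RefSeq promoter windows of 300 bases (250 before and 50 after the start) matched 67 of the 104 lower genes, with 82 windows. Of these, 32 windows (39.0%) held the element, against 3.44% of all 32851 windows in the table and 3.13% of those of tested genes. The shares were 55.6% of the 18 windows of called members of the interferon list and 20.9% of the 43 windows of called genes in no interferon list. The called genes in no interferon list still included members of interferon-inducible families, such as *Oas1g* and *Ifit1bl1*. How many of the 43 windows belong to such genes was not counted. A match is a description of the letters and not a bound site.

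Other motifs were searched on both strands in the same windows, and matches to different motifs could share bases. The AP-1 site TGANTCA was in 19.5% of the windows of lower genes, against 7.81% of all windows and 5.45% of those of tested genes. The TATA box TATAAA was in 23.2%, against 13.6% and 7.94%. The interferon gamma activated site TTCNNNGAA, also added afterwards, was in 11%, against 8.30% and 6.97%, and the E-box CACGTG in 1.22%, against 7.15% and 9.47%. The EGR site GCGTGGGCG was in 1.22%, against 0.612% and 1.13%, while the CArG box and the cyclic AMP response element TGACGTCA were in none of the 82 windows and in 1.63% and 1.79% of all windows (1.32% and 2.81% of those of tested genes).

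Of the 104 lower genes, 7 were in lists of matrix and integrin genes, while 40 were in no list. At the minimum fold, 3 of 33 matrix proteases and inhibitors, 1 of 32 collagen chains, and 1 of 17 integrin subunits were lower. So were 1 of 31 elastic fibre and matrix glycoproteins and 1 of 16 small leucine-rich proteoglycans and tendon markers. No laminin or collagen maturation gene was, although 3 of 15 laminins and basement membrane genes were without ∆CT replicate 3, and 1 with insulin. The share among all tested genes was 0.675%. Whether 7 calls exceed that share was not tested. *Postn*, which encodes the matrix protein periostin, was at 322, 350, and 365 CPM in IR and at 124, 122, and 178 CPM in ∆CT (log2 fold change -1.29 ± 0.13, adjusted p at the minimum fold 0.00116). *Col11a1*, a fibrillar collagen chain, was at 819, 816, and 807 CPM in IR and at 472, 460, and 515 CPM in ∆CT, and with -0.76 ± 0.03 had the smallest change of the 104. The groups did not overlap in either gene. *Itga10*, a collagen-binding integrin subunit, fell from 38.6 ± 1.41 to 20.8 ± 2.63 CPM, and the gelatinase gene *Mmp2* from 55.6 ± 1.94 to 31.3 ± 3.51 CPM. *Dcn*, *Mmp3*, and *Adamts17*, which encode the proteoglycan decorin and 2 matrix proteases, were also called, at means under 5 CPM in IR.

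The matrix lists as a whole moved by less than these members. With no minimum fold, 14.8% of all tested genes were lower and 11.2% higher. Of 32 collagen chains tested, 15 were lower and none higher, with a median log2 fold change of -0.14. *Col3a1* was at a mean of 2883 CPM in IR and 1970 CPM in ∆CT, and *Col1a1* and *Col1a2* fell by 0.19 and 0.23 on the log2 scale. Of 16 small leucine-rich proteoglycans and tendon markers, 9 were lower and none higher (median -0.42); of 15 laminins and basement membrane genes, 7 were lower and 1 higher (median -0.39). The elastic fibre and matrix glycoprotein list was mixed, with 13 of 31 lower and 7 higher, the latter including *Spp1* (osteopontin, from 110 to 167 CPM), *Ltbp1*, and *Vcan*. Of 33 matrix proteases and inhibitors, 13 were lower and 4 higher, and of 17 integrin subunits 5 and 2. Collagen maturation genes were lower in 3 and higher in 3 of 24, near the shares of all tested genes. *Itga8*, an integrin subunit, was at 3.80, 4.13, and 4 CPM in IR and at 2.09, 1.90, and 2.23 CPM in ∆CT, which passed with no minimum fold (-0.94 ± 0.17) but not at it (adjusted p 0.494). *Capn6*, a calpain-like gene, was at 196, 195, and 192 CPM in IR and at 98.1, 89.8, and 125 CPM in ∆CT, and passed at both.

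Further lower genes outside these groups, chosen here after their values were seen, included *Itgbl1*, a secreted integrin-like protein (from 29.9 to 10.2 CPM), *Apod*, a lipid-binding apolipoprotein (from 24.6 to 7.17 CPM), and *Sox4*, a transcription factor gene (from 218 to 118 CPM). By the same rule that named *Gm4951*, *Trdn*, a component of the calcium release complex of muscle, was at 3.37, 2.77, and 3.26 CPM in IR and at 0.474, 0.899, and 1.04 CPM in ∆CT. *Igf1* fell from 21.9 ± 1.15 to 12.2 ± 0.178 CPM (-0.85 ± 0.09), short of the minimum fold (adjusted p 0.0588). Of 11 IGF ligands and binding proteins, 7 were lower and none higher, beside 14.8% and 11.2% of all tested genes.

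In the 5 lines side by side, the lower genes fell into unlike orders of level. Since the genes were chosen for being low in ∆CT relative to IR, these levels are a description. Of the 104, 61 had their highest basal mean in DKO cells, 9 in JMO cells, and 34 in IR cells. The lowest mean was in ∆CT cells for 59 and in K1030R cells, whose receptor keeps the C-terminus, for 22. Between ∆CT and K1030R cells, 91 of the 104 did not pass with no minimum fold, 6 were lower in ∆CT, and 7 higher. The share over all tested genes was not counted for that comparison. The 49 genes of the interferon lists were highest in DKO (42) or JMO cells (7) and in no case in IR cells. Their median log2 fold change against DKO was -0.43 for JMO, -1.30 for IR, -2.69 for K1030R, and -2.92 for ∆CT, comparisons that share the DKO libraries. *Isg15* stood at 155 CPM in DKO and 114 in JMO cells, at 54.5 in IR, at 18.3 in K1030R, and at 16.6 in ∆CT cells, and K1030R and ∆CT differed by less than the spread of the ∆CT libraries (SD 7). *Trim30a* had the same order, with 241, 144, 50.4, 12.2, and 10 CPM.

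Of the 7 called genes of the matrix lists, 5 were highest in IR and 2 in DKO cells. *Mmp3* was at 9.02 CPM in DKO and 4.27 CPM in IR cells, and *Mmp2* at 58.2 and 55.6 CPM. *Postn* was at 51.0 CPM in DKO, 58.9 in JMO, 346 in IR cells, and at 92.9 and 142 CPM with K1030R and ∆CT. *Col11a1* was at 199, 177, 814, 444, and 482 CPM in the same lines, and *Capn6*, which is in no matrix list, at 43.7, 58.7, 194, 81.3, and 104 CPM. For the 34 genes highest in IR cells, the median log2 fold change against DKO was 0.10 for JMO, 1.59 for IR, 0.27 for K1030R, and 0.55 for ∆CT. The choice of these 34 genes fixed IR as the highest line, so that their order is a description too.

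**Figure D2:**
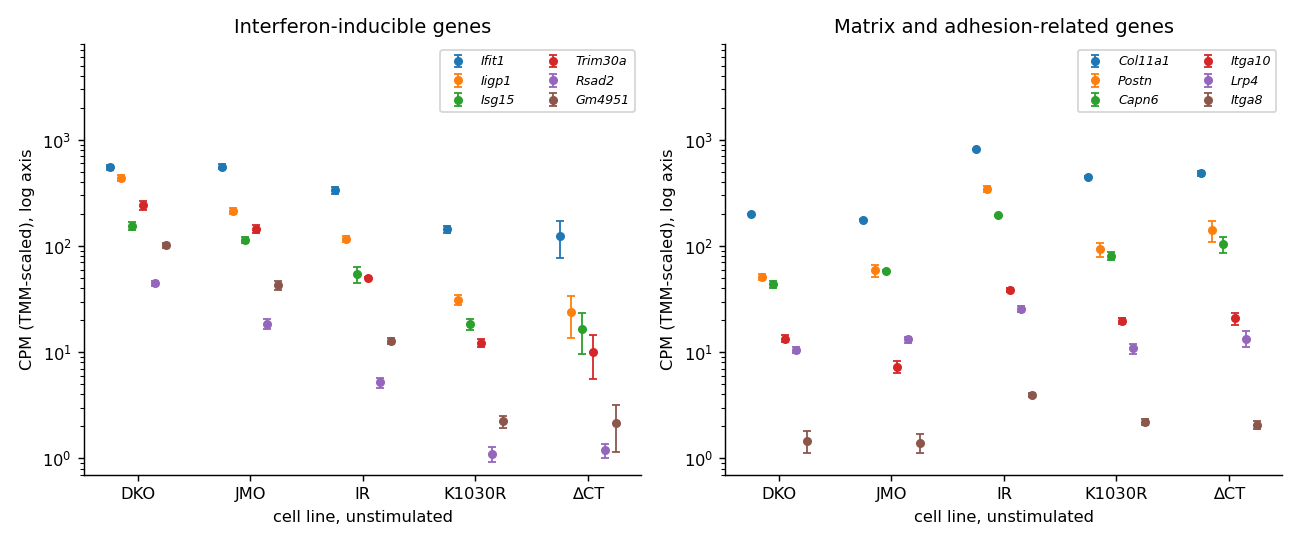
Basal mean CPM (TMM-scaled, log axis) with SD over 3 libraries per line; the left panel holds 6 interferon-inducible genes and the right panel 6 matrix and adhesion-related genes. The left genes are higher in DKO and JMO than in IR and lowest in K1030R and ∆CT, with *Isg15* at 155, 114, 54.5, 18.3, and 16.6 CPM in DKO, JMO, IR, K1030R, and ∆CT. The right genes are a selection that peaks in IR cells, with *Postn* at 346 CPM. Of these, *Capn6* and *Lrp4* are in no matrix list. The called matrix genes *Mmp2* and *Mmp3*, highest in DKO cells, are not shown.

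The libraries with insulin are separate from the 6 basal libraries, although they entered the same filter and the same estimate of the spread. In them, 98 genes were lower and 3 higher in ∆CT than in IR cells at the minimum fold (0.636% and 0.0195%, 0.656% in all). With no minimum fold, 19.7% of genes passed, 11.6% lower and 8.07% higher. Of the 104 basal lower genes, 84 were called lower again (80.8% of the 104 and 85.7% of the 98), 100 were lower with no minimum fold, and all 104 had a log2 fold change below 0 and ∆CT libraries below all IR libraries, against 25.6% of all tested genes. Their median log2 fold change was -1.42. In the interferon list, 44 of 48 were lower and 23 at the minimum fold (median -1.11). *Isg15* was at 50.1, 49.9, and 46.8 CPM in IR and at 13.1 and 14.0 CPM in ∆CT cells with insulin, and *Postn* at 390, 359, and 366 and at 136 and 156 CPM. On *Isg15* both ∆CT libraries with insulin lay near ∆CT basal replicates 1 and 2 and below replicate 3. Leaving out a library with insulin left 25 calls (without ∆CT replicate 1), 44 (without ∆CT replicate 2), or 59 (without IR replicate 1), where a lone ∆CT library was assumed to vary like the other groups.

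**Figure D3:**
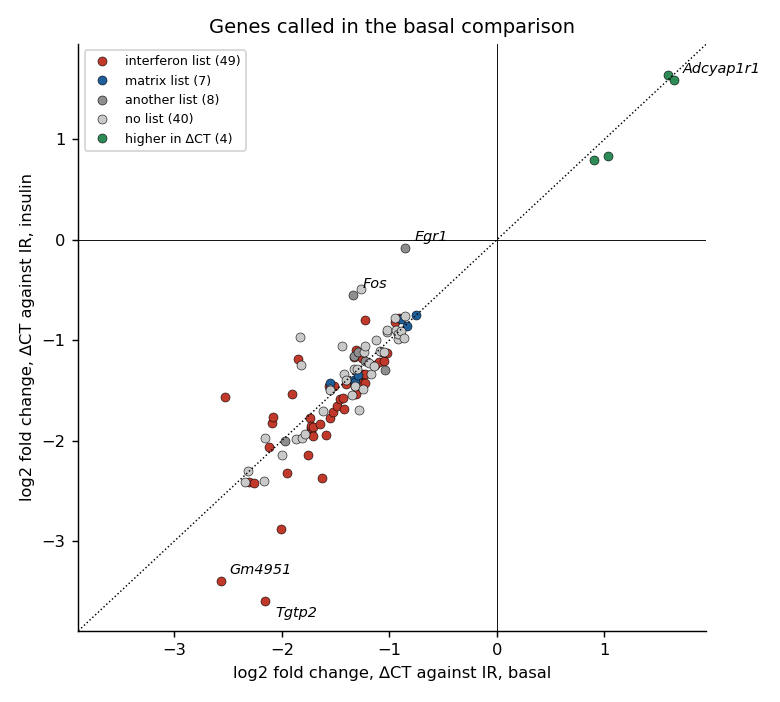
Log2 fold change of ∆CT against IR in basal libraries (x axis) and in libraries with insulin (y axis) for 108 of the 109 genes called in the basal comparison, coloured by list, with a dotted line of equality; *Spata5l1*, at 0 counts in IR basal cells, is left out. All points of lower genes lie below 0 on both axes; *Egr1* lies above the line, at -0.85 basal and -0.08 with insulin, and *Gm4951* below it, at -2.57 and -3.40.

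The immediate early genes, transcription factor genes that growth factors induce within minutes, were more often lower than higher in unstimulated ∆CT cells. Of 27 tested, 12 were lower in ∆CT cells, 2 were higher, and 13 did not pass in the basal comparison. Among all tested genes 14.8% were lower and 11.2% higher. The median log2 fold change of the list was -0.18, and 22 of the 27 were below 0. Without ∆CT replicate 3 the counts were 10 lower and 3 higher, and with only the 6 basal libraries 6 and 2. In the libraries with insulin 3 of the 27 were lower and 2 higher (median -0.06), beside 11.6% and 8.07% of all tested genes. *Egr1*, a zinc finger factor, was at 118, 110, and 99.1 CPM in IR and at 57.3, 56.6, and 67.8 CPM in ∆CT, and with insulin at 768, 762, and 774 CPM in IR and at 739 and 713 CPM in ∆CT. It was the only gene whose difference between the lines itself differed with insulin in the fit of all libraries (0.77 ± 0.09 log2 units, adjusted p 0.00063), 0.00649% of the genes tested. At the minimum fold no gene passed that test, with 86 at an unadjusted p under 0.05. *Fos* was at 5, 4.67, and 3.46 CPM in IR and at 1.71, 1.30, and 2.23 CPM in ∆CT, which passed at the minimum fold (-1.33 ± 0.17), and with insulin at 89.0, 95.3, and 96.6 and at 60.1 and 68.0 CPM. Its difference changed with insulin by 0.79 ± 0.19 log2 units, which did not pass (adjusted p 0.979). *Egr3* was at 10.2 CPM in IR and 6.19 CPM in ∆CT, and its difference changed by 0.63 ± 0.12 log2 units (adjusted p 0.0599), which passed in 4 alternative fits. *Fosl1*, in contrast, was higher in ∆CT, at 4.14, 3.26, and 3.51 CPM in IR against 6.92, 8.14, and 4.76 CPM.

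**Figure D4:**
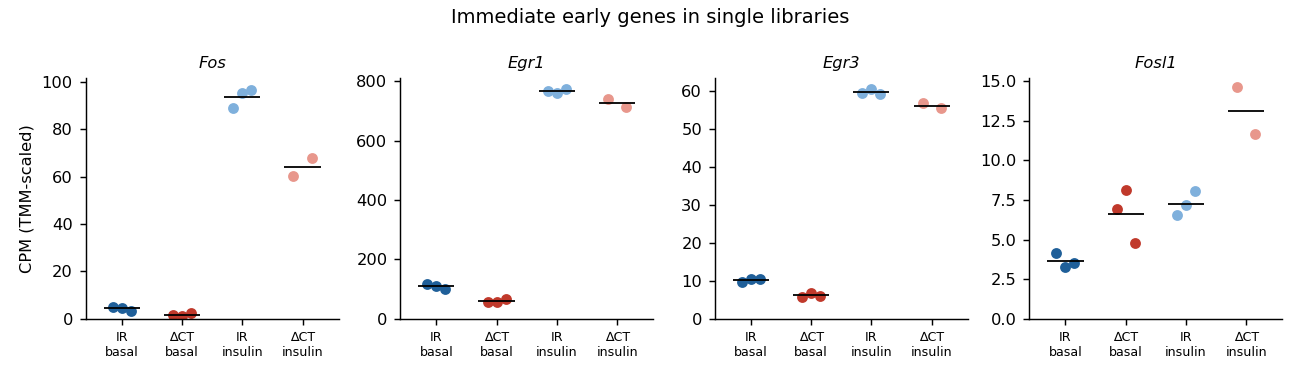
CPM (TMM-scaled, linear axis from 0) of 4 immediate early genes in each IR and ∆CT library, basal and with insulin; points are libraries and bars are group means. *Egr1* is at 109 CPM in IR and 60.6 CPM in ∆CT before insulin, and between 713 and 774 CPM in both lines after it.

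Few genes were higher in ∆CT cells by the minimum fold. *Adcyap1r1*, which encodes a receptor of the neuropeptide PACAP, was at 19.4, 17, and 16.8 CPM in IR and at 58.8, 65.4, and 43.5 CPM in ∆CT (1.65 ± 0.13, adjusted p at the minimum fold 2.14e-05). *Cited1*, a transcriptional co-regulator gene, rose from 1.37 ± 0.257 to 4.18 ± 0.831 CPM, *Tfrc*, the transferrin receptor gene, from 57.5 ± 1.84 to 117 ± 21 CPM, and *Fgf7*, a fibroblast growth factor gene, from 131 ± 3.82 to 245 ± 35.7 CPM. In each of these the third ∆CT library was the lowest of its group and still above all IR libraries. *Adcyap1r1* and *Cited1* were called again with insulin. *Spata5l1*, the fifth gene, had 0 counts in each IR basal library and 17, 6, and 6 in ∆CT, at least 9.93-fold higher against a floor of 3 counts over the IR group. It had 16, 11, and 13 counts in IR cells with insulin.

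Several lists held many higher genes, each by a small amount. The shares among all tested genes, for these lists and those that follow, were 11.2% higher and 14.8% lower. Of 25 genes of cholesterol synthesis and uptake tested, 21 were higher and none lower (median log2 fold change 0.25), with none at the minimum fold. *Srebf2*, which encodes a regulator of these genes, had a log2 fold change of -0.03 ± 0.04. The count of higher genes was 19 to 21 in every fit run and 21 with insulin. Fatty acid synthesis genes were higher in 9 of 17 and lower in 1, with *Elovl6* going from 197 to 280 CPM. Cell cycle genes were higher in 19 of 37 and lower in 5 (median 0.09), among them *Ccnb1* (from 104 to 151 CPM) and *Rrm2* (from 74.0 to 107 CPM). Glycolytic genes were higher in 14 of 29 and lower in 5, and genes of the unfolded protein response in 12 of 29 and lower in 3, with *Xbp1* going from 29.4 to 44.3 CPM.

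Ribosomal protein genes were higher in 34 of 80 and none was lower (median 0.10), and respiratory chain genes in 23 of 78 with 3 lower (median 0.08). These 2 counts moved with the libraries used, from 20 without ∆CT replicate 1 to 42 without ∆CT replicate 3 for ribosomal proteins, and from 9 without IR replicate 3 to 25 without ∆CT replicate 3 for the respiratory chain; without IR replicate 3, 2 ribosomal protein genes and 6 respiratory genes were lower. ERK feedback and ETS target genes were higher in 9 of 20 and lower in 2, with *Spry4* going from 3.30 to 6.06 CPM. Chemokine, interleukin, and complement genes were split, 6 of 28 lower and 8 higher: *Ccl7* rose from 36.6 to 63.2 CPM and *Ccl2* from 163 to 245 CPM while *Cxcl10* fell. Wnt pathway genes were lower in 15 of 39 and higher in 1, and adipocyte lineage genes were lower in 7 and higher in 5 of 23, with *Pparg*, the master regulator of adipocyte differentiation, at 2.76 CPM in IR and 4.58 CPM in ∆CT.

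**Figure D5:**
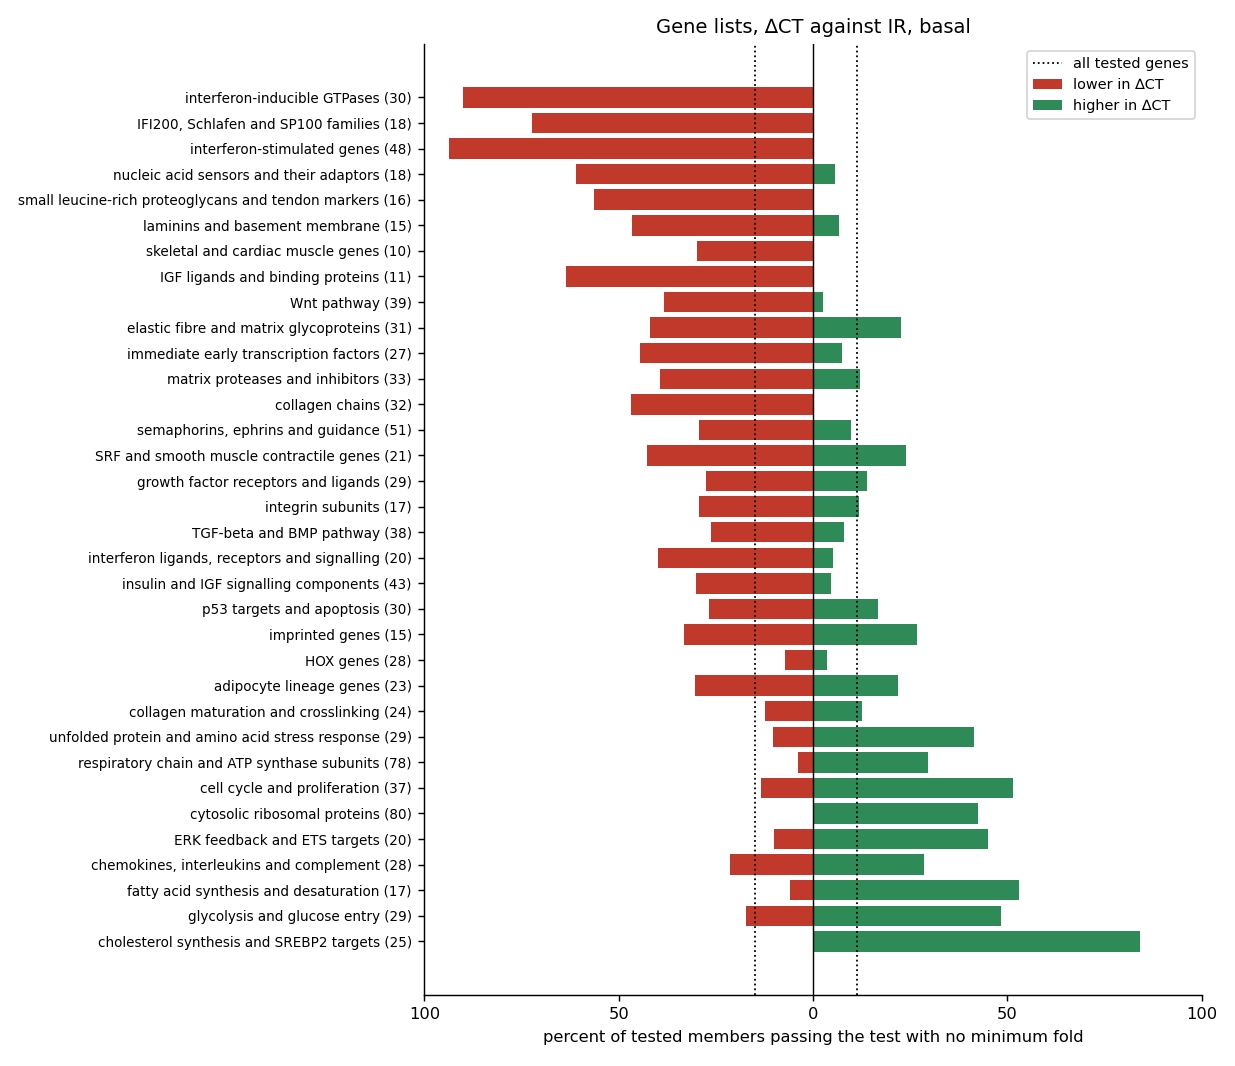
Percent of the tested members of each gene list (number in brackets) that passed the test with no minimum fold, lower in ∆CT to the left and higher to the right, ordered by median log2 fold change; dotted lines mark the shares of all tested genes, 14.8% lower and 11.2% higher. The interferon-stimulated genes (45 of 48) and the GTPases (27 of 30) reach furthest to the left, and 21 of 25 cholesterol genes lie to the right.

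The genes of insulin signalling differed by small amounts. *Insr* counts, assigned to mouse transcripts, were at 65.9, 67.8, and 69.3 CPM in IR and at 81.8, 78.8, and 74.6 CPM in ∆CT (0.21 ± 0.05), against a mean of 23.8 CPM in DKO cells; the share that came from the human receptor was not tested. *Igf1r* fell from 35.1 to 30.3 CPM and stood at 27.1 CPM in DKO cells. The gene had been deleted in all of these lines, and whether the counts come from outside the deleted part was not tested. *Irs1* and *Irs2*, the main substrates of the receptor, had log2 fold changes of -0.07 ± 0.04 and -0.10 ± 0.05 and did not pass (adjusted p 0.18 and 0.17). Of 43 components tested, 13 were lower and 2 higher, beside 14.8% and 11.2% of all tested genes. The median log2 fold change was -0.05, and none passed at the minimum fold. Without IR replicate 1 or ∆CT replicate 1 or 2, 7 were lower. With only the 6 basal libraries 2 were lower, in a fit that called 1317 of all 15402 tested genes lower.

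No chromosome was shifted as a whole, with chromosome medians between -0.03 and 0.05 on the log2 scale. The genes just inside the minimum-fold threshold were *Irf7*, *Lrp4*, and *Irgm1*, with log2 fold changes of -1.23, -0.92, and -1.02. Just outside were *Phf11b*, *Gcnt1*, and *Lama2*, at -2.02, -1.62, and -0.75.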

How the data were processed

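RNA was sequenced from 26 libraries of 5 preadipocyte lines. Per the study's methods, polyadenylated RNA was made into stranded libraries, trimmed with fastp, and assigned to Ensembl mouse transcripts (GRCm38) with kallisto, and the authors deposited expected counts per gene, summed with tximport and not scaled. Counts were rounded (79.9% were already whole), genes were filtered as described, and TMM factors gave CPM. Depth was 17228982 to 24694828 counts per library. In edgeR 4.0.16 (R 4.3.3) a quasi-likelihood model took all 26 libraries, each group having its own mean, with glmTreat for the minimum fold of 1.5 and glmQLFTest for single genes and lists, at a Benjamini-Hochberg adjusted p below 0.05 over all tested genes. Fold changes are fitted values, and the script was tested on simulated data. Their SE was derived from the test, as the absolute log2 fold change divided by the square root of the quasi-likelihood F statistic. limma 3.58.1 and DESeq2 1.42.0 were alternatives. The members and lists were chosen with earlier results of these data known. Named genes were the 20 lower and up to 10 higher called genes with the largest change at a mean of at least 1 CPM and groups that did not overlap, list members with calls or the smallest p, receptor genes, and genes nearest the threshold; other genes, such as those of interferon signalling and sensing, *Srebf2*, *Ccl2*, *Col1a1*, *Slfn8*, and *Spata5l1*, were named after their values were seen. Symbols and coordinates came from GENCODE M21, matched for 15193 of the 15402 genes. Some genes are not reported here.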

Additional observations from a re-analysis of the deposited data

Results flagged for a closer look

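*Egr1* was the gene whose difference between ∆CT and IR cells differed between the basal state and insulin, by 0.77 ± 0.09 log2 units (adjusted p 0.00063, edgeR interaction contrast). It was lower in ∆CT in 3 of 3 basal libraries and lower in 2 of 2 libraries with insulin, where the log2 fold change was -0.08. The difference passed in each of the 18 alternative fits, with values from 0.71 to 0.86. No group had enough libraries for a test of single outlying values.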

How the results depend on the processing

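All 104 lower genes kept a negative log2 fold change in every alternative fit, and no named gene changed sign. With no filter on low counts, the calls at the minimum fold were 208 basal and 224 with insulin, and the difference with insulin gave 141 genes; the cause was not tested. Fitting only the groups compared gave 32 basal calls at the minimum fold and 2554 with none, 143 calls with insulin at the minimum fold, and 2 genes for the difference with insulin. With insulin, DESeq2 gave 62 calls and limma voom 67 at the minimum fold. At least 10 counts in at least 4 libraries gave 2 genes for the difference with insulin. An adjusted p below 0.001 left 33 basal calls. Leaving out 1 library gave 54 to 177 basal calls at the minimum fold and 2889 to 4451 with none, 25 to 84 and 1693 to 2790 with insulin, and 1 to 3 genes for the difference with insulin. Same-numbered basal IR and ∆CT libraries did not deviate together (residual correlations 0.01, -0.03, and 0.00). No shared deviation was seen, which cannot tell whether libraries of the same number were handled together. With the replicate number as a block, basal calls were 113 and 4153, calls with insulin 88 and 2946, and the difference with insulin 1 gene. Of single named genes, 18 values lost and 1 gained the threshold; 13 of the losses, 11 of them interferon genes, came with the 6 basal libraries alone. Of the 104, 24 had a mean below 5 CPM in IR, as did 29.4% of all tested genes. These 24 rest on fewer counts than the others.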
